A study of Mus musculus with 4 samples.

Results

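The CHOP branch of the integrated stress response was followed through 10 genes chosen by symbol: Ddit3, which encodes CHOP, and Trib3, Chac1, Nupr1, Cebpb, Cebpg, Stc2, Vldlr, Gpt2 and Ppp1r15a. All 10 were among the 25759 gene symbols of the count table, and all 10 passed the filter on low counts that left 13306 genes. RNA came from alveolar epithelial type II cells, the surfactant-making cells of the alveolus, of C57BL/6 mice aged 14 weeks. There were 2 wild-type (WT) libraries and 2 libraries of Sftpc-mTOR transgenic mice (mTOR Tg), which carry a conditional, active form of the growth kinase mTOR named for the surfactant protein C gene. Not given in the sources used here were the inducer and its timing, the sex of the animals, the isolation method and whether animals were pooled. At issue is how stress-response transcripts differ between type II cells with and without active mTOR in the epithelium.

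In the integrated stress response, kinases such as PERK and GCN2 phosphorylate the translation initiation factor eIF2, which lowers general protein synthesis while favouring translation of the transcription factor ATF4. ATF4 switches on amino acid supply genes and also Ddit3, and CHOP then acts in pairs with C/EBP proteins on stress and cell death genes. mTOR complex 1 is itself known to raise ATF4 in cultured cells, and type II cells, as secretory cells, depend on protein folding in the ER.

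The WT libraries held 18146693 and 19018785 counts, and the mTOR Tg libraries 21972124 and 20273396. Replicate 1 is given before replicate 2 wherever a pair of values stands, and CPM of single genes are on TMM-scaled library sizes. Summed type II cell markers were abundant, at 141915 and 120675 CPM (counts scaled to the library total) in WT against 115394 and 149914 CPM in mTOR Tg. Club cell markers were abundant too, at 82174 and 88620 CPM in WT, so member values are those of isolates with RNA of both kinds. Summed leukocyte markers were at 2.94 to 4.68 CPM, and 3 of the 9 in the table had no count in any library. mTOR Tg replicate 1 stood apart: 1807 to 1949 genes lay over 2-fold from each other library, against 264 between the WT libraries. Its club cell markers summed to 157892 CPM against 54631 to 88620 CPM elsewhere, and its ciliated cell markers to 2800 CPM against 1229 to 1464 CPM. Of 8 tested ciliated markers 6 had positive log2 fold changes in mTOR Tg. The exceptions, Ccdc39 (35.7 CPM) and Dnah5 (58.1 CPM), were lowest in replicate 1, against 40.7 to 54.7 CPM and 68.3 to 94.9 CPM elsewhere. The type I, endothelial and mesothelial marker sums lay on the same side of both WT libraries in both transgenic libraries. Summed type I cell markers were at 1609 and 1550 CPM in WT against 1986 and 1722 CPM in mTOR Tg, with 7 of 8 tested genes positive. Fibroblast and pericyte markers, at 47.0 and 32.3 CPM in WT against 32.7 and 62.7 CPM in mTOR Tg, did not. Summed endothelial markers were at 151 and 154 CPM in WT against 90.3 and 95.2 CPM in mTOR Tg, with 8 of 8 tested genes negative. Summed mesothelial markers were at 10.3 and 19.5 CPM against 30.3 and 22.0 CPM, with 5 of 5 tested genes positive. The part of these cells in the member values, Chac1 and Stc2 included, was not tested. The values of mTOR Tg replicate 1 also depended on transcript length, with a median log2 difference from WT of 0.44 in the shortest quartile of genes and -0.55 in the longest, where mTOR Tg replicate 2 was at 0.00 in both. Values are therefore given for each library, and each member's difference with and without this library. In bulk RNA a change in the share of a cell type and a change of RNA per cell cannot be told apart.

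None of the 10 members passed the edgeR quasi-likelihood test at an adjusted p of 0.05, in either direction, and neither did any of the 13306 genes tested (0%). At an unadjusted p under 0.05 there were 0 members and 327 genes (2.46%). limma-voom called 0 genes, and DESeq2 called 12 genes (0.0902%) and 0 members. The largest differences among the members were those of Chac1, Cebpb and Stc2, all toward higher values in mTOR Tg, followed by Ddit3 and Nupr1, and the other 5 lay between -0.19 and 0.10 on the log2 scale. Of the 10, 6 had positive log2 fold changes, against 50.9% of all genes tested. The median was 0.22 beside 0.01 for all genes. It was 0.09 without mTOR Tg replicate 1, 0.39 with replicate 2 left out instead and 0.08 with offsets for transcript length and GC content. Ddit3, Trib3, Chac1 and Stc2 had both transgenic libraries above both WT libraries (17.6% of all genes tested), and Cebpg had both below (17%). These 5 of 10 stand beside 34.6% of all tested genes whose groups did not overlap.

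**Figure D1:**
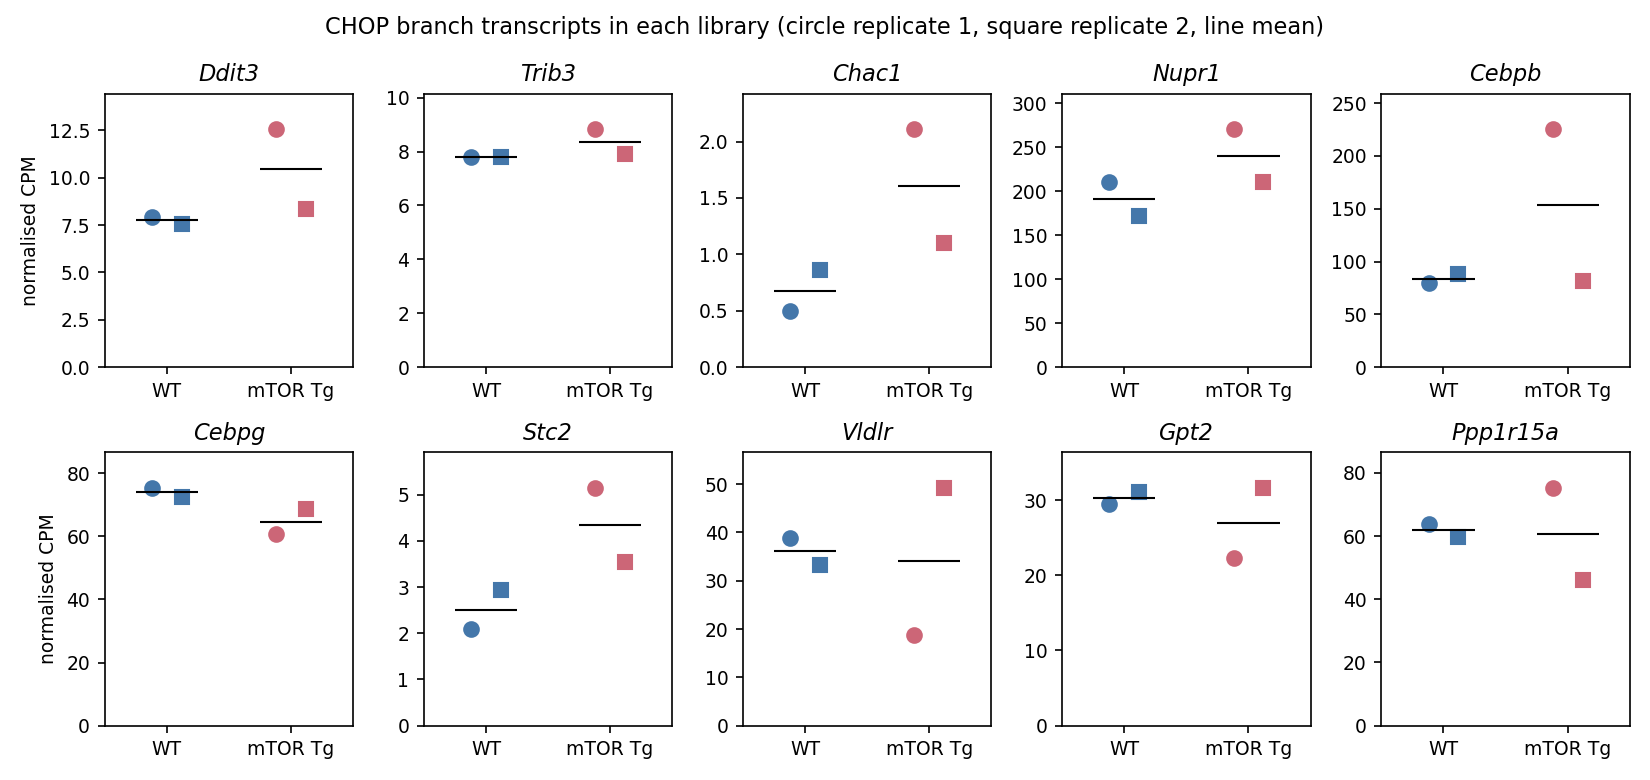
Normalised CPM (counts on scaled library sizes, linear axis from 0) of the 10 genes in each library, with WT in blue, mTOR Tg in red and a line at the group mean of 2 libraries. The mTOR Tg replicates (circle and square) lie further apart than the WT replicates in all 10 panels, and Cebpb is high in mTOR Tg replicate 1 alone.

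Elements recognised by C/EBP-ATF pairs are the usual route from ATF4 and CHOP to their targets, so the promoters of the members were read from the RefSeq table (GRCm38.p6), over the 250 bases before each annotated start. The 10 genes had 11 such windows, since Vldlr has 2 starts. The C/EBP-ATF response element was searched as TGATGNAA on both strands, and 3 of the 11 windows held it, against 3.45% of 32851 windows of the same length. Those were the windows of Chac1, Nupr1 and the second Vldlr start, and each held it as the same 8 letters on the opposite strand. Stretches around the matches are shown because these 3 members share the match, with the match in capitals. The Chac1 stretch is chr2:119351003-119351102 on the plus strand, the Nupr1 stretch is chr7:126625562-126625591 on the minus strand, and the Vldlr stretch is chr19:27216809-27216838 on the plus strand.
Chac1: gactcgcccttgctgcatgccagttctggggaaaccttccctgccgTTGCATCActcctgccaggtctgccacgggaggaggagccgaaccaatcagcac
Nupr1: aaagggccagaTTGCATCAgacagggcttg
Vldlr: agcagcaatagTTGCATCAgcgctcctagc
The match lies 193 to 186 bases before the Chac1 start, 110 to 103 before the Nupr1 start and 200 to 193 before the second Vldlr start. The RefSeq windows of Nupr1 and the second Vldlr start lie inside the GENCODE gene spans given further on. Their stretches overlap annotated exons, and that of Chac1 does not. The log2 fold changes of these 3 genes were 1.23 (SE 0.54), 0.33 (SE 0.23) and -0.08 (SE 0.45), and none passed the test. A match describes letters in a window and is not evidence of binding.

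Of the other elements searched on both strands, the AP-1 site TGACTCA was in 1 member window, that of Ddit3, and in 4.46% of all windows. The cAMP response element TGACGTCA was in 1 member window, that of Ppp1r15a, and in 1.55% of all. The ER stress response element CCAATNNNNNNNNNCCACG was in 0 member windows and 0.113% of all, and its first 5 letters, the CCAAT box, were in 5 member windows and 33.8% of all. The Ddit3 stretch (chr10:127290543-127290569, plus strand) and the Ppp1r15a stretch (chr7:45526269-45526326, minus strand) are shown because they hold these AP-1 and cAMP response element matches.
Ddit3: cgcgcgcaTGACTCActcacctcctcc
Ppp1r15a: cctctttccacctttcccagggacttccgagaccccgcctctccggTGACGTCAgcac
In Ddit3 the AP-1 letters lie 242 to 236 bases before the start, and in Ppp1r15a the cAMP response element lies 12 to 5 bases before it. The Ddit3 stretch overlaps an annotated exon, and the Ppp1r15a stretch does not.

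Levels can be compared between genes only per length, here as normalised CPM per kilobase of the transcript model. In WT the order was Nupr1 (231), Cebpb (55.7), Ppp1r15a (22.0), Cebpg (15.7), Ddit3 (8.70), Gpt2 (8.31), Vldlr (4.52), Trib3 (3.84), Stc2 (0.637) and Chac1 (0.413). Nupr1 was thus the most abundant member and Chac1 the least. Ddit3 and Gpt2 were the only neighbours in this order whose WT libraries overlapped, at 8.88 and 8.52 for Ddit3 and 8.09 and 8.54 for Gpt2. The mTOR Tg means gave the same order from Nupr1 to Gpt2 and, below it, Vldlr at 4.27, Trib3 at 4.13, Stc2 at 1.10 and Chac1 at 0.981. There 4 pairs of neighbours had overlapping libraries. Ddit3, at 14.1 and 9.36, overlapped Cebpg, at 12.9 and 14.6. Vldlr, at 2.36 and 6.18, overlapped both Gpt2, at 6.12 and 8.70, and Trib3, at 4.36 and 3.90. Stc2, at 1.31 and 0.899, overlapped Chac1, at 1.29 and 0.673.

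Ddit3 (GRCm38 chromosome 10, 127290774 to 127296288, plus strand) encodes CHOP, the C/EBP-family factor that gives the branch its name, which pairs with other C/EBP proteins and draws them from their classical sites. Its WT counts were 144 and 150, and its mTOR Tg counts 256 and 174. As normalised CPM these were 7.91 and 7.58 in WT and 12.6 and 8.33 in mTOR Tg. Both transgenic libraries were above both WT libraries, replicate 1 clearly and replicate 2 by a margin inside its counting error. The exact 95% Poisson interval of mTOR Tg replicate 2 was 7.14 to 9.67 CPM, which contains both WT values, and that of replicate 1 was 11.1 to 14.2 CPM. As a log2 fold change this was 0.43 (SE 0.28, edgeR adjusted p = 0.860), which became 0.11 without mTOR Tg replicate 1, 0.70 with replicate 2 left out instead and 0.07 with offsets for transcript length and GC content. Ddit3 shares exon sequence with the methionyl-tRNA synthetase gene Mars on the opposite strand, and the strandedness of the counting is not given, so reads of the pair may be mixed. Mars was at 40.2 and 41.9 CPM in WT against 51.6 and 48.8 CPM in mTOR Tg, or 0.29 (SE 0.19) as a log2 fold change.

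Cebpb (chromosome 2, 167688915 to 167690418) and Cebpg (chromosome 7, 35046422 to 35056573) encode bZIP proteins that pair with ATF4 and CHOP. Cebpb was at 79.8 and 87.8 CPM in WT against 225 and 81.3 CPM in mTOR Tg. The high value was that of replicate 1 alone, and replicate 2 lay between the WT libraries. The log2 fold change, 0.87 (SE 0.47, adjusted p = 0.860 in edgeR), was -0.04 without mTOR Tg replicate 1 and 1.43 with replicate 2 left out instead. It was 0.46 with the length and GC offsets. The library with high Cebpb was also the one with the highest club and ciliated cell marker sums. The part of those cells in the Cebpb value was not tested. Tmem189, which overlaps Cebpb on the opposite strand, was at 82.8 and 74.1 CPM in WT against 84.1 and 92.3 CPM in mTOR Tg. Cebpg was steadier, at 75.4 and 72.6 CPM in WT against 60.6 and 68.6 CPM in mTOR Tg, or -0.19 (SE 0.19, adjusted p = 0.860 in edgeR) as a log2 fold change. Both transgenic libraries were below both WT libraries, by a small margin for replicate 2. The Cebpg value was -0.11 without mTOR Tg replicate 1, -0.29 with replicate 2 left out instead and 0.09 with the length and GC offsets. Cebpg overlaps noncoding genes on both strands. The count ratio of Cebpb to Cebpg within a library was 1.06 and 1.21 in WT against 3.71 and 1.18 in mTOR Tg. Scaling of whole libraries cannot move this ratio, but a trend with transcript length can. Cebpb (1504 bases) is in the shortest quartile of genes and Cebpg (4709 bases) in the longest. The part of the length trend of mTOR Tg replicate 1 in the ratio was not tested.

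Cebpa, the C/EBP factor of differentiated type II cells, was at 941 and 901 CPM in WT against 906 and 1075 CPM in mTOR Tg. Cebpd, a stress-responsive relative, was at 51.2 and 55.0 CPM against 74.5 and 47.8 CPM. Its highest value was again in mTOR Tg replicate 1. The count ratio of Cebpb to Cebpd was 1.56 and 1.60 in WT against 3.02 and 1.70 in mTOR Tg. Cebpd has the longer transcript model (3746 bases against 1504), and the part of the length trend in this ratio was not tested. Cebpe had no count in any library.

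Chac1 (chromosome 2, 119351229 to 119354381) encodes a gamma-glutamyl cyclotransferase that degrades glutathione and is a classical late target of the branch. It was the rarest member, with WT counts of 9 and 17 against 43 and 23 in mTOR Tg, or 0.494 and 0.859 CPM and 2.11 and 1.10 CPM. Both transgenic libraries were above both WT libraries. The exact 95% Poisson intervals were 0.226 to 0.938 and 0.500 to 1.38 CPM in WT, and 1.53 to 2.84 and 0.698 to 1.65 CPM in mTOR Tg, so only mTOR Tg replicate 1 stood clear of both WT intervals. The log2 fold change, 1.23 (SE 0.54, adjusted p = 0.860 in edgeR), was the largest of the 10. It was 0.68 without mTOR Tg replicate 1, 1.62 with replicate 2 left out instead, 0.89 without WT replicate 1, 1.69 without WT replicate 2 and 0.91 with the length and GC offsets. Its paralogue Chac2 was at 3.95 and 3.79 CPM in WT against 2.65 and 3.74 CPM in mTOR Tg.

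Trib3 (chromosome 2, 152337422 to 152344032) encodes a pseudokinase induced by ATF4 and CHOP that feeds back on both and binds AKT. It was the most even of the 10, at 7.80 and 7.78 CPM in WT against 8.83 and 7.90 CPM in mTOR Tg. Both transgenic libraries were above both WT libraries, but replicate 2 by only 0.02 on the log2 scale over the WT mean. The log2 fold change was 0.10 (SE 0.23, edgeR adjusted p = 0.906) and became 0.02 without mTOR Tg replicate 1, 0.18 with replicate 2 left out instead and -0.13 with the length and GC offsets. The count ratio of Trib3 to Ddit3 was 0.986 and 1.03 in WT and 0.703 and 0.948 in mTOR Tg. Trib3 has the longer transcript model (2026 bases against 890), and the part of the length trend in this ratio was not tested. Of the relatives of Trib3, Trib1 was at 71.0 and 63.5 CPM in WT against 59.1 and 46.2 CPM in mTOR Tg, with both transgenic libraries below WT. Trib2 was at 19.5 and 24.5 CPM against 32.1 and 19.6 CPM.

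Nupr1 (chromosome 7, 126623249 to 126630861) encodes a small chromatin-associated protein induced by many stresses. It was at 211 and 172 CPM in WT against 271 and 210 CPM in mTOR Tg. The groups met, since mTOR Tg replicate 2 (210.1 CPM) lay just below WT replicate 1 (210.6 CPM). Its log2 fold change was 0.33 (SE 0.23, edgeR adjusted p = 0.860) and was 0.14 without mTOR Tg replicate 1, 0.50 with replicate 2 left out instead and -0.01 with the length and GC offsets. Nupr1 is the shortest of the 10 transcript models, at 829 bases. Nupr1l, its relative, was at 2.42 and 2.63 CPM in WT against 3.68 and 2.73 CPM in mTOR Tg.

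Stc2 (chromosome 11, 31357307 to 31370074) encodes stanniocalcin 2, a secreted glycoprotein produced under ER stress. Its WT counts of 38 and 58 stood against 105 and 74 in mTOR Tg, or 2.09 and 2.93 CPM and 5.15 and 3.54 CPM. Both transgenic libraries were above both WT libraries, but the exact 95% Poisson interval of mTOR Tg replicate 2, 2.78 to 4.45 CPM, contains the value of WT replicate 2. Their log2 fold change, 0.79 (SE 0.35, adjusted p = 0.860 in edgeR), was 0.49 without mTOR Tg replicate 1 and 1.03 with replicate 2 left out instead, and 0.85 with the length and GC offsets. Stc1 was barely counted, with WT counts of 5 and 9 against 5 and 13 in mTOR Tg.

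Vldlr (chromosome 19, 27216484 to 27254231), the receptor for very low density lipoprotein and a known ATF4 target, was the member whose transgenic libraries lay furthest apart on opposite sides of WT. It was at 38.8 and 33.3 CPM in WT, 18.8 CPM in mTOR Tg replicate 1 and 49.3 CPM in replicate 2. One transgenic library was thus below both WT libraries and the other above both. The log2 fold change, -0.08 (SE 0.45, adjusted p = 0.960 in edgeR), was 0.45 without mTOR Tg replicate 1, -0.94 with replicate 2 left out instead and 0.21 with the length and GC offsets. Vldlr is the longest of the 10 transcript models, at 7971 bases. The related receptor gene Lrp8 had 10 to 26 counts in each library.

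Gpt2 (chromosome 8, 85492576 to 85527560) encodes the mitochondrial alanine aminotransferase, which links glutamate to pyruvate. It was at 29.4 and 31.1 CPM in WT against 22.3 and 31.6 CPM in mTOR Tg. Replicate 1 was low and replicate 2 was just above WT. For Gpt2 the log2 fold change was -0.17 (SE 0.24, edgeR adjusted p = 0.865), at 0.06 without mTOR Tg replicate 1 and -0.44 with replicate 2 left out instead. The cytosolic enzyme gene Gpt was at 129 and 115 CPM in WT against 133 and 114 CPM in mTOR Tg.

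Ppp1r15a (chromosome 7, 45522916 to 45526268) encodes GADD34, which brings protein phosphatase 1 to eIF2 and so ends the response. It was at 63.8 and 59.8 CPM in WT, 75.3 CPM in mTOR Tg replicate 1 and 46.2 CPM in replicate 2. The transgenic libraries lay on opposite sides of WT, the reverse of Vldlr. For Ppp1r15a the log2 fold change was -0.02 (SE 0.28, edgeR adjusted p = 0.981), at -0.42 without mTOR Tg replicate 1, 0.29 with replicate 2 left out instead and -0.19 with the length and GC offsets. Tulp2, which overlaps it on the opposite strand, had 2 to 5 counts a library. Its constitutive counterpart Ppp1r15b was at 87.8 and 98.0 CPM in WT against 65.8 and 94.9 CPM in mTOR Tg. The count ratio of Ppp1r15a to Ppp1r15b was 0.726 and 0.610 in WT against 1.14 and 0.487 in mTOR Tg. Ppp1r15b has the longer transcript model (5594 bases against 2809). The part of the length trend of mTOR Tg replicate 1 in this ratio was not tested.

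**Figure D2:**
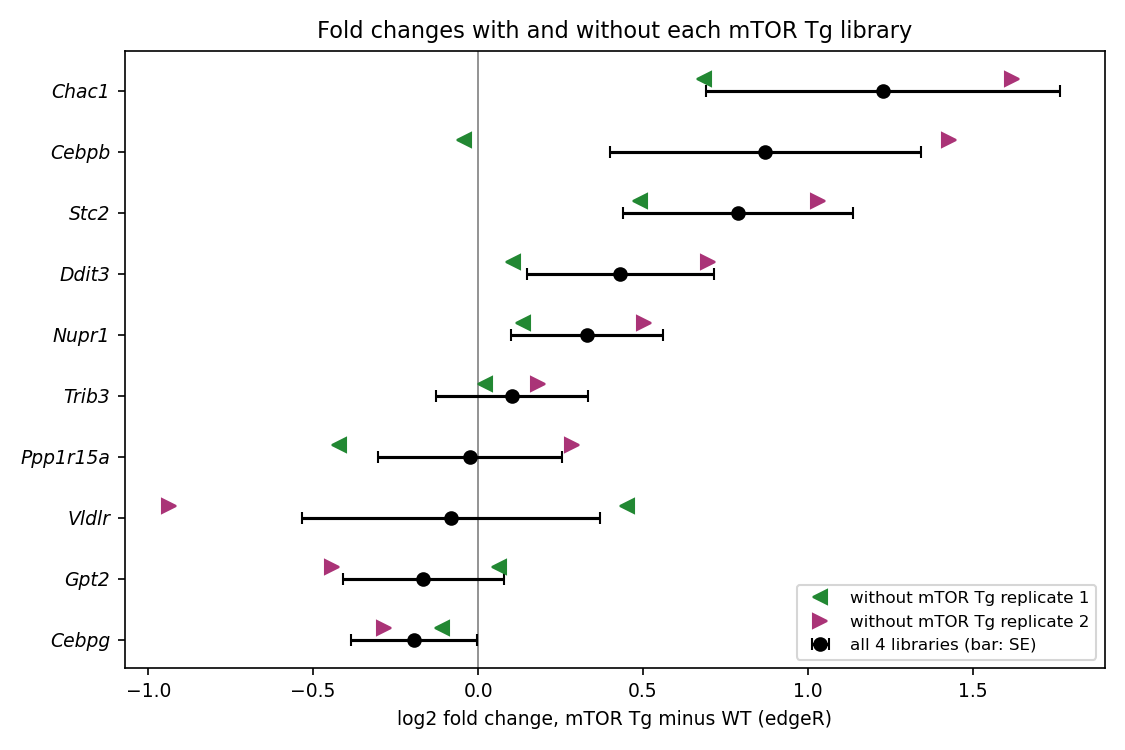
Log2 fold change of mTOR Tg over WT for each member (horizontal axis) from all 4 libraries with its SE, and from fits that leave out either mTOR Tg library. Chac1, Stc2, Ddit3, Nupr1 and Trib3 stay above 0 and Cebpg below 0 in both such fits, while Cebpb, Gpt2, Vldlr and Ppp1r15a lie on both sides.

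With mTOR Tg replicate 2 left out, 7 of the 10 members passed, 5 higher and 2 lower in mTOR Tg, and so did 47.1% of all genes, 22.6% higher and 24.6% lower. That fit rests on 1 transgenic library, which is taken to vary as the WT pair does. The edgeR legacy option gave 9 members and 47.2% of all genes there. With mTOR Tg replicate 1 left out, 0 members passed, against 2.5% of all genes, and with the legacy option again 0 members, against 2.56%. In both of these fits Vldlr was at a log2 fold change of 0.45 and Ppp1r15a at -0.42.

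The difference of mTOR Tg replicate 1 from WT followed transcript length among the members as it did among all genes. The 4 members in the shortest quartile of length (829 to 1637 bases) were Nupr1, Ddit3, Cebpb and Chac1, at 0.51, 0.69, 1.43 and 1.55 on the log2 scale over the WT mean. The 2 in the longest quartile, Cebpg and Vldlr, were at -0.29 and -0.93. Stc2, in the third quartile, was an exception at 1.03, where the median of that quartile was -0.13. In mTOR Tg replicate 2 the same 4 short members were at 0.14, 0.10, -0.04 and 0.67, and Stc2 was at 0.50. The WT libraries themselves lay 0.69 apart for Chac1 and 0.47 apart for Stc2.

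**Figure D3:**
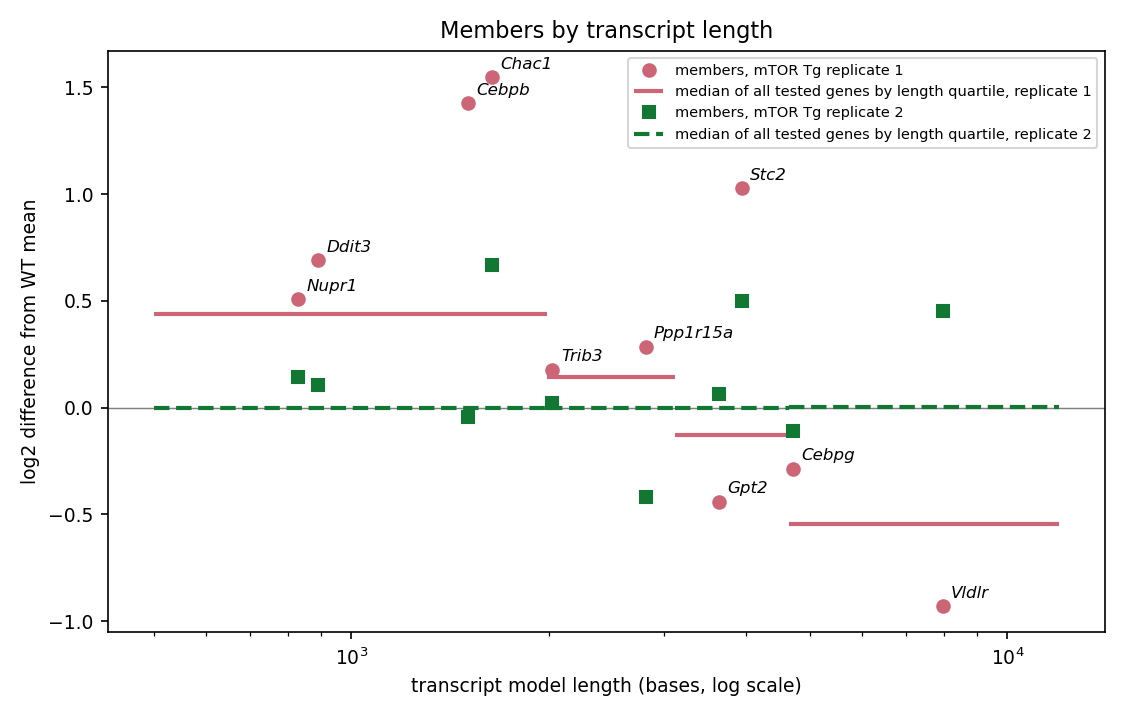
Log2 difference from the WT mean against transcript model length (log axis) for each member in mTOR Tg replicate 1 (circles, named) and replicate 2 (squares), with lines at the medians of all tested genes by length quartile. In replicate 1 the medians go from 0.44 to -0.55 and most members follow them, with Stc2, Chac1 and Cebpb well above, while in replicate 2 the medians stay at 0.00.

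Upstream of CHOP, no transcript of the pathway passed the test. Atf4 was at 116 and 115 CPM in WT, 168 CPM in mTOR Tg replicate 1 and 81.2 CPM in replicate 2, so that the transgenic libraries lay on either side of a tight WT pair. Its log2 fold change was 0.11 (SE 0.36), and -0.51 without mTOR Tg replicate 1, in a fit that rests on 1 transgenic library. On the log2 scale replicate 1 itself lay at 0.54 from the WT mean, and replicate 2 at -0.51, so the sign depends on the library left out. ATF4 is controlled mainly in translation, which these counts do not measure. The count ratio of Ddit3 to Atf4 was 0.0684 and 0.0657 in WT, and 0.0749 and 0.103 in mTOR Tg. Eif2ak3, which encodes the ER kinase PERK, was at 36.1 and 40.5 CPM in WT against 24.2 and 40.7 CPM in mTOR Tg. Eif2ak4, which encodes the amino acid sensor GCN2, was at 36.7 and 41.0 CPM in WT against 18.3 and 34.0 CPM in mTOR Tg, both below WT. In the list of eIF2 kinases, eIF2 and eIF2B subunits and phosphatase genes, 0 of 20 tested genes passed, 9 were positive and 11 negative, and the median log2 fold change was -0.02. Eif2b2, an eIF2B subunit, had the smallest p on the higher side, at 42.9 and 45.5 CPM in WT against 77.3 and 44.4 CPM in mTOR Tg.

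Among the bZIP factors of the response 0 of 13 tested genes passed, with 8 positive and a median of 0.07. Atf5, itself a target of ATF4 and CHOP, was at 35.4 and 34.9 CPM in WT against 69.0 and 58.8 CPM in mTOR Tg, or 0.86 (SE 0.20) as a log2 fold change. It was well above WT in both transgenic libraries. Atf3, an early stress factor, was at 70.7 and 65.8 CPM in WT against 63.6 and 28.2 CPM in mTOR Tg, or -0.57 (SE 0.39) as a log2 fold change. Here the low value was that of replicate 2, the library that was also low in Atf4 and Ppp1r15a.

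A list of other target genes of ATF4 and CHOP holds genes of amino acid synthesis and transport, tRNA synthetase genes, and genes of cell death, the ER and autophagy. Of 31 tested genes 0 passed, 24 had positive values and 18 had both transgenic libraries above both WT libraries, beside 17.6% of all genes. None had both below, and the median log2 fold change was 0.32, or 0.35 in mTOR Tg replicate 1 and 0.21 in replicate 2. Among the members the corresponding medians were 0.40 and 0.08. Mthfd2, a mitochondrial folate enzyme gene, was at 1.48 and 1.57 CPM in WT against 4.07 and 5.70 CPM in mTOR Tg, and Gdf15, a stress-induced secreted factor, at 13.1 and 19.7 CPM against 31.5 and 31.4 CPM. On the lower side the smallest p-values were those of Ero1l, an ER oxidase gene known as a CHOP target, at 33.1 and 34.5 CPM in WT against 19.5 and 36.6 CPM in mTOR Tg, and Sesn2, at 36.6 and 32.6 CPM against 33.0 and 30.2 CPM. The death receptor gene Tnfrsf10b, another known target of CHOP, was at 2.14 and 3.13 CPM in WT against 4.47 and 2.44 CPM in mTOR Tg. Of BH3-only genes, Bbc3 (PUMA) was at 29.5 and 33.3 CPM against 46.4 and 34.6 CPM, and Bcl2l11 (BIM) at 24.6 and 28.8 CPM against 15.6 and 30.7 CPM. These last 3 genes were chosen after their values were seen.

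**Figure D4:**
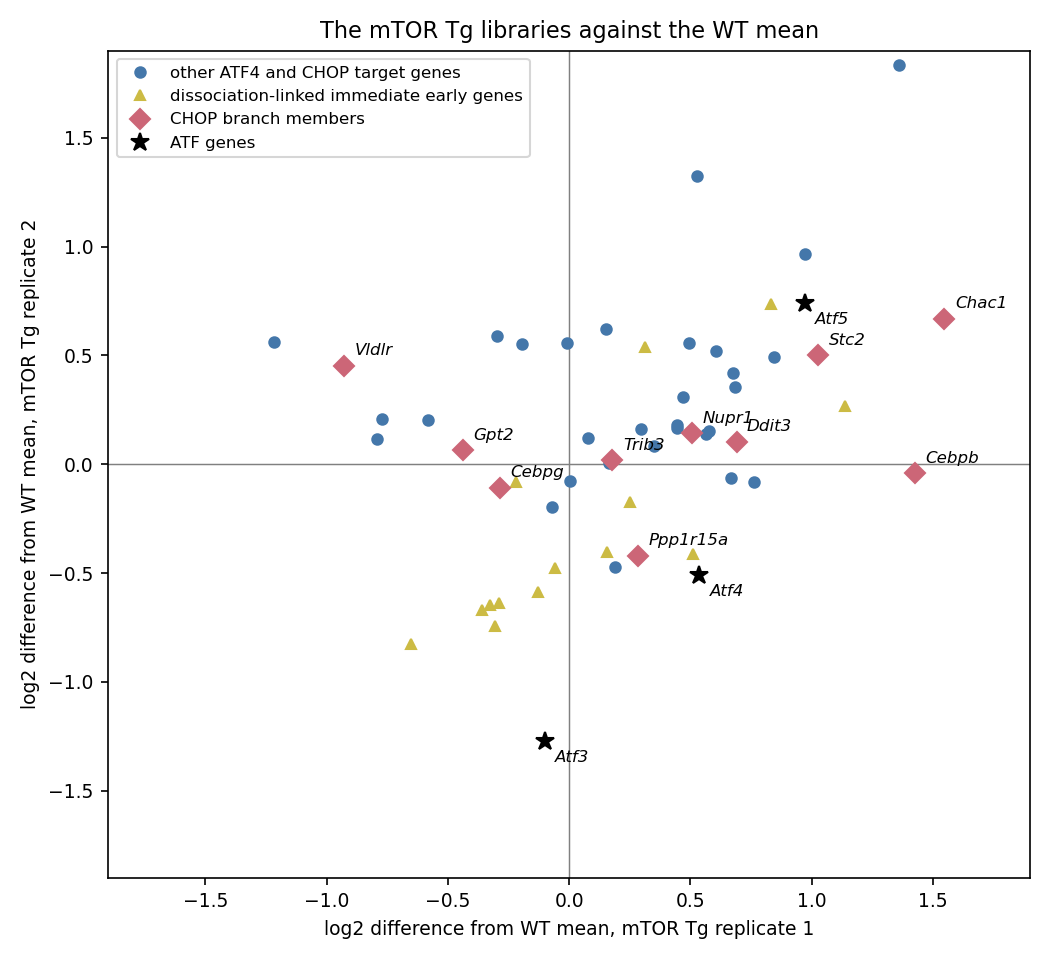
Log2 difference from the WT mean in mTOR Tg replicate 1 (horizontal) and replicate 2 (vertical) for the 10 members, the other ATF4 and CHOP target genes, immediate early genes and 3 ATF genes, with 3 genes outside the plotted range (Slc7a11, Hspa1a and Hspa1b). Chac1, Stc2 and Atf5 lie above WT in both libraries, Cebpb in replicate 1 only, and Atf4 and Ppp1r15a lie above WT in replicate 1 and below it in replicate 2.

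The parallel arm of the unfolded protein response, run by ATF6 and XBP1, had 0 of 18 tested genes passing, 13 positive and a median of 0.18. Both transgenic libraries were above both WT libraries in 10 of the 18 and below them in 1, beside 17.6% and 17% of all genes. Sdf2l1, an ER chaperone cofactor gene, was at 16.7 and 16.4 CPM in WT against 33.1 and 22.9 CPM in mTOR Tg, and Creld2 at 46.7 and 48.4 CPM against 86.8 and 63.1 CPM. The genes with the smallest p on the lower side were Ern1, which encodes the sensor IRE1, at 77.0 and 69.7 CPM against 28.1 and 66.7 CPM, and Dnajb9, at 49.7 and 58.6 CPM against 36.2 and 53.0 CPM. Of 114 tested genes of the pathway, immediate early and related lists and the other members, those closest to Ddit3 in pattern were Manf, Herpud1 and Eif2b2. Their root mean square differences from Ddit3 in log2 CPM over the 4 libraries were 0.07, 0.09 and 0.09.

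Ddit3, Cebpb and Ppp1r15a are also known to respond to tissue dissociation, so immediate early genes were set beside them. Of 16 tested, 0 passed, 5 were positive and 11 negative, and the median log2 fold change was -0.30. The median lay -0.17 from WT in mTOR Tg replicate 1, and -0.53 from it in replicate 2, against 0.01 between the WT libraries. Egr1 was at 289 and 239 CPM in WT against 167 and 148 CPM in mTOR Tg. Klf4 was at 49.0 and 58.6 CPM against 41.8 and 33.6 CPM. Fos was at 684 and 719 CPM against 559 and 448 CPM. Myc, in the other direction, was at 3.40 and 3.18 CPM against 5.94 and 5.55 CPM, and Ier3 at 21.5 and 25.8 CPM against 52.0 and 28.3 CPM. The heat shock gene Hspa1a ranged from 1170 and 149 CPM in WT to 193 and 26.6 CPM in mTOR Tg, a spread within WT that no member shared, and it has a near-identical copy in Hspa1b. mTOR Tg replicate 2, the lower library for Ppp1r15a, was also the lowest for Atf3, which is outside this list. Among the 16 immediate early genes it was the lowest for all but Myc, Ier3, Nr4a1 and Socs3. For Zfp36 the margin was narrow, at 339.6 CPM against 339.8 CPM in WT replicate 1. Socs3 was highest there, at 145 and 117 CPM in WT against 162 and 190 CPM in mTOR Tg. Ddit3 was above both WT libraries in that library, and Cebpb lay between them. Fos, Hspa1a, Nr4a1 and Socs3 were chosen after their values were seen. The part of dissociation in the Ppp1r15a value was not tested.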

How the data were processed

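The authors deposited raw read counts by gene symbol, as whole numbers in 1 table of 4 libraries. Build mm10, HISAT2 and edgeR are named in the submitters' processing notes, without versions or settings. The counting program, annotation and strandedness remain not given in the sources used here. Columns were tied to samples through the names in the labels. Here, filterByExpr (by group, minimum count 10) chose the genes, which were scaled with TMM factors and tested with the edgeR 4.0.16 quasi-likelihood test (legacy option off) in R 4.3.3, with genotype as the only term and Benjamini-Hochberg adjustment over 13306 genes at 0.05. The SE is the log2 fold change divided by the square root of F. Differences from the WT mean used log2 CPM with a prior count of 2. Poisson intervals and floors (3 counts are 0.137 to 0.165 CPM) cover counting error only. The labels do not say whether replicates are separate mice, and p-values then reflect only how these samples vary, which may be technical.

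Alternatives were other scalings (DESeq2 size factors, library size, upper quartile), no filter or 1 CPM in all libraries, DESeq2 1.42.0, limma-voom (limma 3.58.1), edgeR's legacy option, a replicate block, offsets for transcript length and GC fitted with mgcv 1.9.3 (13137 genes with a length), and each library left out, also with the legacy option, which was added after seeing the data. Positions, lengths and overlaps come from GENCODE M21 (GRCm38), using the longest basic coding transcript, and promoters from RefSeq. The code was tested on simulated counts. The members and lists were chosen with earlier results of these data known. Named were the 10 members, their relatives (1 is not reported here), Atf4, Eif2ak3 and Eif2ak4, the genes of each list passing the test or, with none, up to 2 with the smallest p in each direction, and the 3 genes nearest to Ddit3 in pattern.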

Additional observations from a re-analysis of the deposited data

How the results depend on the processing

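With 2 libraries a group and a transgenic pair that varied more than the WT pair (biological coefficients of variation 0.325 and 0.0891), the members' differences have wide errors. Of 189 member values under the alternatives, 153 kept their sign and their side of the threshold, 15 kept their sign and passed, and 21 changed sign. Members passing ranged from 0 to 7 with 1 library left out, or 0 to 9 with the legacy option, and were 0 in every other alternative run. Genes passing were 12 with DESeq2 and ranged from 8 to 6273 with 1 library left out, and from 6 to 6282 (341 without mTOR Tg replicate 1) with the legacy option as well. Pathway, immediate early and related genes passing, an alternative count added after seeing the data, ranged from 1 to 59 with 1 library left out, and from 1 to 58 (19 without mTOR Tg replicate 1) with the legacy option as well. The pathway counts were out of 105 tested genes, and the counts of all genes out of 13306. Both had their lowest value without WT replicate 1 and their highest without mTOR Tg replicate 2. In each of these fits 1 group rests on 1 library, so the pathway counts are not read as a result about those genes. With upper quartile scaling Ppp1r15a was at 0.012. With length and GC offsets Trib3 was at -0.13, Nupr1 at -0.0055, Cebpg at 0.0907 and Vldlr at 0.21. With 1 library left out, Cebpb ranged from -0.0441 to 1.43, Gpt2 from -0.44 to 0.0646, Vldlr from -0.94 to 0.45 and Ppp1r15a from -0.42 to 0.29. With the legacy option as well, Cebpb was at -0.0443 and Gpt2 at 0.0644 without mTOR Tg replicate 1, and Vldlr at 0.0310 and Ppp1r15a at 0.0204 without WT replicate 1. Chac1 could not be tested at 1 CPM in all libraries. The cause of these shifts was not tested.

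A replicate block gave 37 genes and 3 pathway or immediate early genes (Slc7a11, Hspa1a and Hspa1b), and 0 members. Slc7a11 was at 2.42 and 2.63 CPM in WT against 2.65 and 55.2 CPM in mTOR Tg, so the high value was that of replicate 2 alone. The labels do not say whether same-numbered samples belong together. They deviated together at a correlation of 0.07 across genes, which with 2 libraries a group cannot decide it. The replicate block with length and GC offsets gave 1 gene (Hspa1a), with Trib3 at -0.13, Nupr1 at -0.0090, Cebpg at 0.082 and Vldlr at 0.19.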
